A study of Arabidopsis thaliana with 9 samples.

Results

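The 10 genes described here license and clamp DNA replication in Arabidopsis thaliana. They were chosen by locus: MCM2 to MCM7, CDC6A, CDT1A, PCNA1 and PCNA2, 10 of the 32823 genes listed in each library. All 10 passed the filter on low values, a mean FPKM (fragments scaled to transcript length and library size) of at least 1 over the libraries, which 19180 genes passed. The libraries were poly(A)-selected mRNA libraries of whole seedlings aged 2 weeks, with 3 of the cyclophilin 71 mutant cyp71-3, 3 of the serrate mutant se-1 and 3 of the wild type Col-0, all grown in long days without a treatment. CYP71 is a nuclear peptidyl-prolyl isomerase, and SERRATE (SE) is a partner of the microRNA-processing complex. The study was set up to ask how loss of CYP71 alters microRNAs and their target transcripts. The labels give no lesion for either allele and do not say whether the libraries of a genotype came from separate cultures. The p-values therefore rest on the spread among these libraries, which may be technical.

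In eukaryotes a replication origin is licensed when the origin recognition complex, CDC6 and CDT1 load the ring of MCM2 to MCM7, the core of the replicative helicase, onto DNA before S phase. PCNA forms the sliding clamp that holds DNA polymerases on the template and recruits many other factors. In plants these genes are expressed mainly in dividing and endoreduplicating cells of meristems and young organs. Their transcription is known to be driven by E2F and DP factors and held back by the retinoblastoma-related protein RBR1.

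The libraries summed to 825338 to 937136 FPKM, and their relative depth, read from the smallest steps of the low values, ranged from 1.0 to 1.60. Chloroplast genes held 0.0313% to 3.44% of the summed FPKM, with over 1% in cyp71-3 replicate 1, se-1 replicates 1 and 3 and Col-0 replicate 2. CYP71 averaged 4.09 ± 0.36 FPKM in cyp71-3, 17.8 ± 0.65 in se-1 and 17.9 ± 1.13 in Col-0 (SD, n = 3 each), and it fell in cyp71-3 relative to Col-0 by 1.89 on the log2 scale (limma adjusted p = 1.63e-09). SE averaged 33.1 ± 0.22 FPKM in cyp71-3, 27.2 ± 1.73 in se-1 and 31.7 ± 1.37 in Col-0. Its fall in se-1 (log2 fold change -0.21, limma adjusted p = 0.0052) was lost after rescaling to nuclear genes (adjusted p = 0.194). Markers of leaf and root were both present: the Rubisco small subunit gene RBCS1A averaged 15289 ± 145 FPKM in cyp71-3, 17042 ± 970 in se-1 and 16145 ± 238 in Col-0, and CASP1 of the root endodermis 10.4 ± 0.50, 22.1 ± 2.15 and 18.4 ± 2.14 FPKM in the same order. The stem cell regulator WUS was listed at 0 in every Col-0 library.

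In se-1, all 10 licensing and PCNA genes were higher than in Col-0, in a comparison that called 50.2% of all genes tested, 25.1% as higher and 25.1% as lower. CDC6A, PCNA1 and PCNA2 stood at 1.70, 1.66 and 1.58 times their Col-0 mean FPKM, and MCM6, at 1.24 times, differed least by that ratio. In cyp71-3, 7 of the 10 were higher than in Col-0 and none was lower, where 63.3% of all genes tested were called, 30.6% as higher and 32.7% as lower. CDC6A, MCM2, MCM5 and MCM3 stood at 1.63, 1.31, 1.29 and 1.28 times their Col-0 mean, and MCM6, CDT1A and PCNA2 did not pass the test. Set directly against se-1, cyp71-3 had less of 7 of the 10 transcripts, PCNA2 and PCNA1 foremost, where 62.2% of all genes tested were called, 30% as higher and 32.2% as lower.

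Every fold change and call comes from limma on log2(FPKM + 1), a scale that understates the change of genes with low values. A gene was called at a Benjamini-Hochberg adjusted p under 0.05 over all genes tested. The libraries of mutant and Col-0 did not overlap, with the mutant higher, for 8 of the 10 members in cyp71-3, against 34.2% of all genes tested, and for 10 of the 10 in se-1, against 28.6%. The median log2 fold change of the members was 0.22 in cyp71-3 and 0.48 in se-1, beside -0.01 and 0.00 over all genes tested. Both comparisons use the same Col-0 libraries and are not independent of each other. Rescaling each library to its nuclear genes set their summed FPKM equal in all libraries. It removed differences in that sum, not only in the chloroplast share. All genes summed to 881065 to 937136 FPKM in Col-0, 825338 to 883795 in cyp71-3 and 825991 to 853627 in se-1. The rescaling moved the median of all genes up by 0.10 in cyp71-3 and by 0.10 in se-1. It changed the calls from 5871 higher and 6277 lower to 7382 and 4756 in cyp71-3, and from 4818 and 4815 to 6916 and 3041 in se-1. Under that scaling all 10 members were called higher in both mutants, with medians of 0.32 and 0.59. In whole seedlings, fewer cells of a type and less RNA per cell cannot be told apart.

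**Figure D1:**
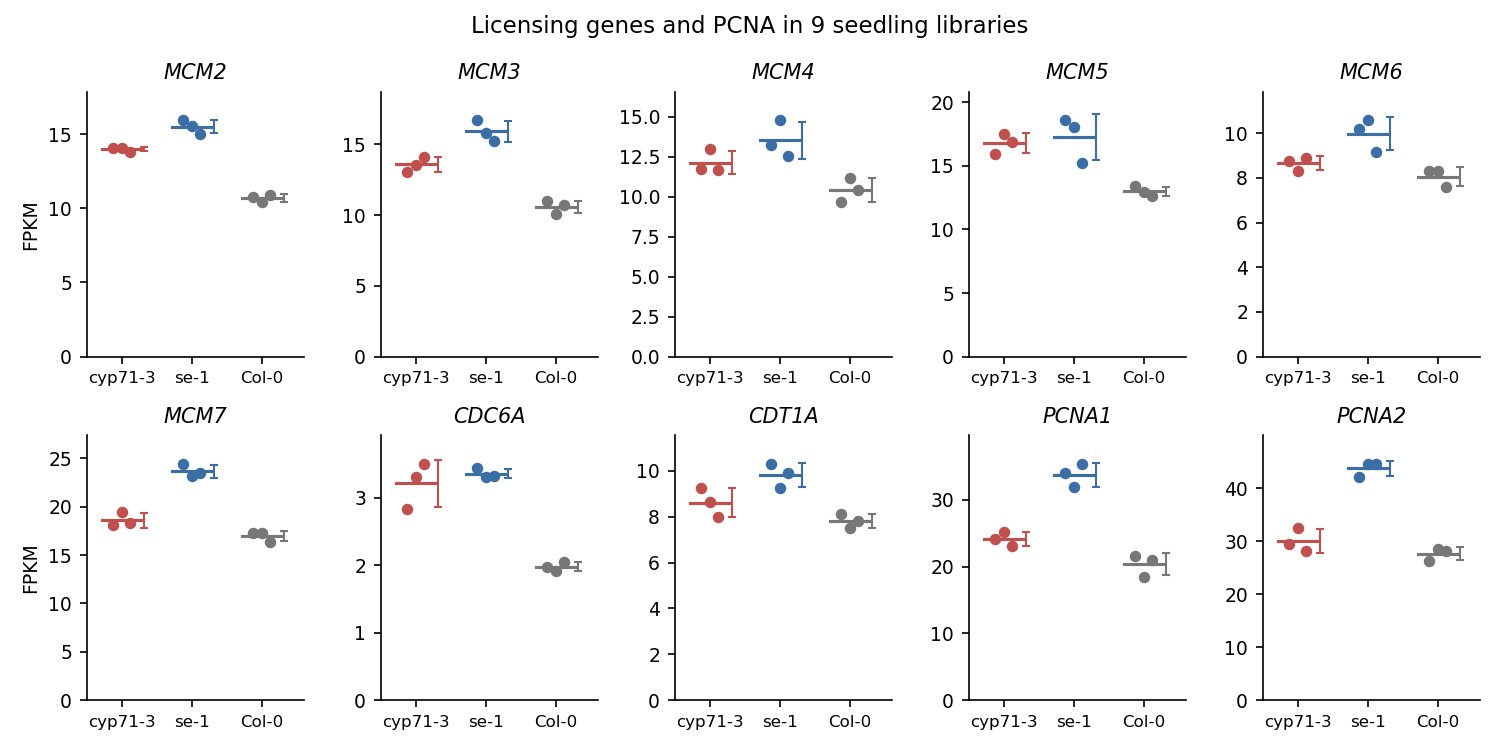
FPKM of each licensing and PCNA gene in cyp71-3, se-1 and Col-0 seedlings (y axis from 0; 1 point per library, horizontal line the mean, vertical bar the SD, n = 3). PCNA1 and PCNA2 in se-1 stand apart from both other genotypes, while MCM5 and CDC6A are raised to similar levels in both mutants.

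The bases before the members' starts are shown because MCM and CDT1 genes are known E2F targets, and the words below are where that motif was found. The E2F motif was searched as TTTCCCGC, TTTCCCGG, TTTCGCGC, TTTCGCGG, TTTGCCGC, TTTGCCGG, TTTGGCGC and TTTGGCGG, on both strands, in the 300 bases before each annotated gene start of the RefSeq TAIR10.1 assembly. It was present before 6 of the 10 members, before 15 of 50 other listed replication genes (30.0%) and before 877 of 27443 coding genes (3.20%). Each stretch is on the gene's own strand, 5′ to 3′, with the E2F word in capitals. They lie at chr1:16970185-16970213 (MCM2, plus strand), chr5:18773743-18773891 (MCM3, minus), chr2:7130742-7130779 (MCM4, minus), chr2:3527501-3527534 (MCM5, minus), chr5:18010691-18010728 (MCM6, minus) and chr2:13328836-13328861 (CDT1A, plus).
MCM2: aaattggcgccaataTTTCCCGCctaatc
MCM3: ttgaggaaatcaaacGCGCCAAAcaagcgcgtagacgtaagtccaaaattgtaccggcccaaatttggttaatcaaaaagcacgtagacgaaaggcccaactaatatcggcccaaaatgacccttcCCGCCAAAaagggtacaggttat
MCM4: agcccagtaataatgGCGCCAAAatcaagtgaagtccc
MCM5: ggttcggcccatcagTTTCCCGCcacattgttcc
MCM6: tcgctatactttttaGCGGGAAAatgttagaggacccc
CDT1A: ttcgtagataagtgtTTTCGCGGgaa

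MCM2, MCM5 and MCM6 carry the same word, TTTCCCGC, which in MCM6 is on the opposite strand. MCM3 is the one member with 2 words before its gene start, and they end 163 and 52 bases before it. MCM5 has 2 words, TTTCCCGC and TTTGGCGG, before a second annotated transcript that starts 40 bases inside the gene. Of the words before a gene start, that of CDT1A lies nearest and ends 4 bases before it. MCM7 and CDC6A have no word before the gene start but have TTTCCCGC before a second annotated transcript that starts further in, at chr4:901355-901374 and chr2:12689393-12689422, both on the plus strand.
MCM7: tctataatactTTTCCCGCc
CDC6A: ttccattgctaTTTCCCGCtacttccattt

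The MCM7 word begins 9 bases before a transcript that starts 739 bases inside the gene, and the CDC6A word 177 bases before one that starts 410 bases inside. Counted before any annotated mRNA start, 8 of the 10 members and 3.92% of coding genes held an E2F word. Neither PCNA gene held one. The site II motif (TGGGCC or TGGGCT, both strands), which TCP factors bind in the rice PCNA promoter, was found before 7 of the 10 members and 20.8% of coding genes. PCNA2 held 2 of them, and the other 6 members with a site II match were those with an E2F word. The telo box (AAACCCTA, both strands) was found before PCNA1 and before 5.21% of coding genes. No match of one motif overlapped another. Some windows run into a neighbouring gene: all 300 bases of MCM7's lie in AT4G02050, 187 of PCNA1's in AT1G07360 and 228 of PCNA2's in AT2G29580, which holds both PCNA2 site II matches. The PCNA1 telo box straddles the end of AT1G07360.

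Among genes with the word in general, calls were split nearly evenly between higher and lower. Of 608 other tested genes with an E2F word before the gene start, 32.4% were higher and 31.3% lower in cyp71-3, beside 30.6% and 32.7% of all genes tested. In se-1, 152 of the 608 were higher and 141 lower (23.2%), beside 25.1% and 25.1% of all genes tested. These are descriptions of letters in a window, and no binding was measured.

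**Figure D2:**
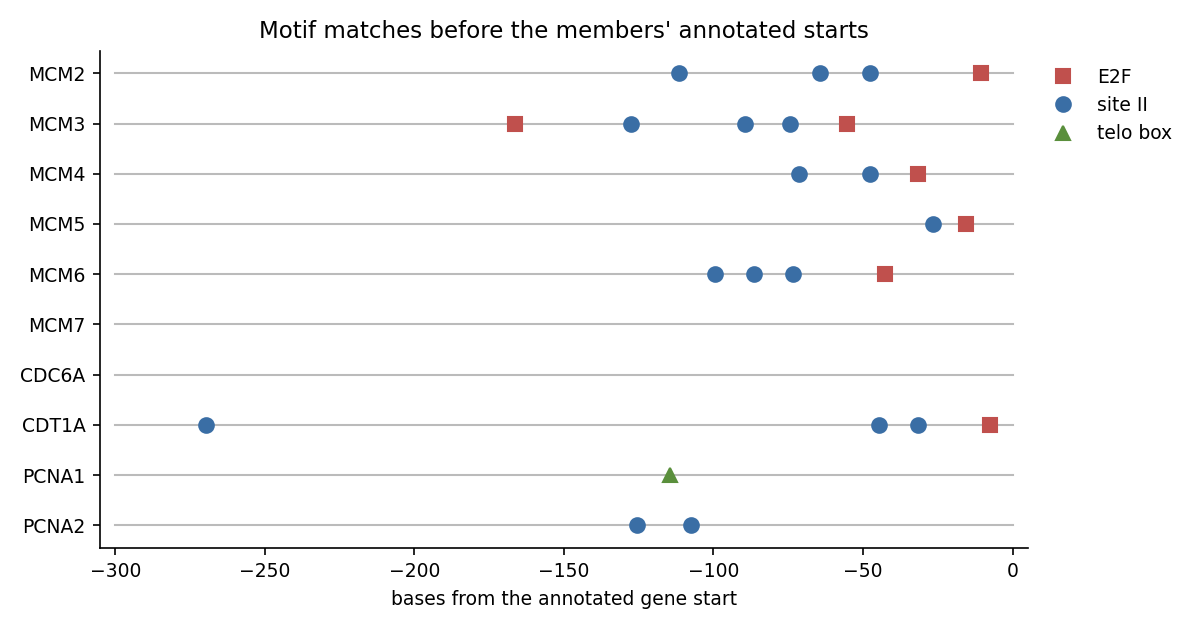
Position of each motif match (x axis, bases from the annotated gene start; E2F squares, site II circles, telo box triangle) before the 10 members. E2F words lie just before the start in MCM2, MCM4, MCM5, MCM6 and CDT1A, and the lines of MCM7 and CDC6A are empty.

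The first 4 helicase subunits rose in both mutants. MCM2 (AT1G44900, chr1:16970214-16974753), which with MCM5 forms the gate of the ring in yeast, had 14.1, 14.0 and 13.8 FPKM in the cyp71-3 libraries, 15.9, 15.5 and 15.0 in se-1 and 10.8, 10.4 and 10.9 in Col-0. None of the 3 genotypes overlapped, with se-1 highest and Col-0 lowest. Its log2 fold change was 0.36 ± 0.05 (SE) in cyp71-3 (adjusted p = 6.73e-05) and 0.50 ± 0.05 in se-1 (adjusted p = 8.19e-06). For MCM3 (AT5G46280, chr5:18769649-18773706), a subunit that contacts the loading factors in yeast, the values were 13.1, 13.6 and 14.1 FPKM in cyp71-3, 16.7, 15.8 and 15.2 in se-1 and 10.97, 10.10 and 10.7 in Col-0. It followed the order of MCM2, again with 3 separate groups. The log2 fold changes were 0.33 ± 0.06 in cyp71-3 (adjusted p = 0.00037) and 0.55 ± 0.06 in se-1 (adjusted p = 1.28e-05).

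MCM4 (AT2G16440, chr2:7126279-7130729), whose tail is phosphorylated at origin firing in yeast, had 11.7, 12.95 and 11.7 FPKM in cyp71-3, 13.2, 14.8 and 12.5 in se-1 and 9.63, 11.2 and 10.4 in Col-0. Both mutants lay above Col-0, and the mutants overlapped each other. It rose by 0.35 ± 0.08 in se-1 (adjusted p = 0.00266) and by 0.20 ± 0.08 in cyp71-3 (adjusted p = 0.0352). The cyp71-3 call was lost without Col-0 replicate 1 or 3, or without cyp71-3 replicate 1 or 2 (adjusted p up to 0.135 when 1 library was left out), and with no filter on low values (adjusted p = 0.0504). MCM5 (AT2G07690, chr2:3522984-3527500) read 16.0, 17.5 and 16.9 FPKM in cyp71-3, 18.6, 18.0 and 15.2 in se-1 and 13.4, 12.95 and 12.7 in Col-0. Here the mutants overlapped, with se-1 replicate 3 below all cyp71-3 libraries. The log2 fold changes were nearly equal, 0.35 ± 0.07 in cyp71-3 (adjusted p = 0.00137) and 0.38 ± 0.07 in se-1 (adjusted p = 0.00107).

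The remaining subunits, MCM6 and MCM7, moved chiefly in se-1. MCM6 (AT5G44635, chr5:18006212-18010667), the subunit that binds CDT1 in yeast, had 8.75, 8.31 and 8.91 FPKM in cyp71-3, 10.2, 10.6 and 9.17 in se-1 and 8.30, 8.30 and 7.58 in Col-0. All 3 cyp71-3 libraries were above Col-0, replicate 2 only barely. Its log2 fold change was 0.28 ± 0.07 in se-1 (adjusted p = 0.0058) and 0.09 ± 0.07 in cyp71-3 (adjusted p = 0.259, 95% interval -0.06 to 0.24). MCM7, known in Arabidopsis as PROLIFERA (AT4G02060, chr4:900636-905591), had 18.1, 19.5 and 18.3 FPKM in cyp71-3, 24.4, 23.1 and 23.5 in se-1 and 17.3, 17.3 and 16.4 in Col-0. The se-1 libraries stood well apart, and those of cyp71-3 lay just above Col-0. The rise in se-1 was 0.46 ± 0.05 (adjusted p = 1.66e-05). In cyp71-3 it was 0.12 ± 0.05 (adjusted p = 0.0471), a call lost without any 1 Col-0 library, without cyp71-3 replicate 2 or 3, or without se-1 replicate 2 (adjusted p up to 0.168).

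Both loading factors were among the lowest members, CDC6A lowest of all. CDC6A (AT2G29680, chr2:12689171-12693121), the ATPase that joins the origin recognition complex to bring in the helicase, had 2.83, 3.31 and 3.50 FPKM in cyp71-3, 3.44, 3.31 and 3.32 in se-1 and 1.97, 1.91 and 2.05 in Col-0. Each mutant library exceeded each Col-0 library, and the mutants overlapped. The log2 fold changes were 0.50 ± 0.09 in cyp71-3 (adjusted p = 0.000559) and 0.55 ± 0.09 in se-1 (adjusted p = 0.00042), on ratios of mean FPKM of 1.63 and 1.70. CDT1A (AT2G31270, chr2:13328862-13331831), which escorts the MCM ring to the origin, had 9.23, 8.63 and 7.98 FPKM in cyp71-3, 10.3, 9.25 and 9.91 in se-1 and 8.11, 7.52 and 7.80 in Col-0. The cyp71-3 libraries overlapped with Col-0, and the se-1 libraries did not. It rose by 0.30 ± 0.07 in se-1 (adjusted p = 0.00403). The value in cyp71-3 was 0.12 ± 0.07 (adjusted p = 0.136, 95% interval -0.03 to 0.28). With the 4 libraries of over 1% chloroplast FPKM left out together, se-1 had 1 library and its CDT1A call was lost.

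The PCNA genes were the most abundant members per length. In se-1 they had the largest log2 fold changes of the members on the log2(FPKM + 1) scale, while by ratio of mean FPKM CDC6A (1.70) stood above PCNA1 (1.66) and PCNA2 (1.58). PCNA1 (AT1G07370, chr1:2263037-2264553) had 24.1, 25.1 and 23.1 FPKM in cyp71-3, 34.0, 31.9 and 35.4 in se-1 and 21.6, 18.5 and 21.0 in Col-0. The 3 groups were separate. Its log2 fold change was 0.70 ± 0.06 in se-1 (adjusted p = 4.04e-06) and 0.24 ± 0.06 in cyp71-3 (adjusted p = 0.00705). The cyp71-3 call was lost with the 4 libraries of over 1% chloroplast FPKM left out together (0.17, adjusted p = 0.0557). PCNA2 (AT2G29570, chr2:12649906-12651753) had 29.6, 32.5 and 28.1 FPKM in cyp71-3, 42.1, 44.5 and 44.6 in se-1 and 26.2, 28.45 and 28.2 in Col-0. The cyp71-3 and Col-0 libraries overlapped, and every se-1 library was above all others. PCNA2 rose by 0.64 ± 0.06 in se-1 (adjusted p = 3.37e-06), and in cyp71-3 its value was 0.12 ± 0.06 (adjusted p = 0.0967, 95% interval -0.01 to 0.24). Without cyp71-3 replicate 3 it was called in cyp71-3 as well (0.16).

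PCNA1 made up 44.6% ± 0.84 of the summed FPKM of the 2 PCNA genes in cyp71-3, 43.5% ± 1.58 in se-1 and 42.4% ± 2.90 in Col-0 (SD, n = 3). The coefficient of variation over the 6 MCM subunits was 25.2% ± 1.74 in cyp71-3, 28.7% ± 3.07 in se-1 and 26.6% ± 0.91 in Col-0. The 6 pairwise differences in these measures gave p = 0.2 to 0.7 (exact two-sided permutation tests, adjusted p = 0.6 to 0.7). With 3 libraries against 3 such a test cannot go below 0.1, so no difference could have passed and these values do not show that the genotypes were alike. The coding sequences of PCNA1 and PCNA2 were 85.48% identical over 792 aligned bases, and 20 of the 1106 stretches of 25 bases in PCNA1 transcripts (1.81%) also occur in PCNA2.

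Gene overlaps touch 3 members, and whether fragments were assigned by strand is not given in the sources used here. The 3′ part of PCNA2 overlaps AT2G29560 (ENOC, a cytosolic enolase) by 279 bases on the opposite strand, and 255 of the 1159 stretches of 25 bases in PCNA2 transcripts match in that orientation. ENOC averaged 19.8 ± 0.54 FPKM in cyp71-3, 15.2 ± 0.82 in se-1 and 14.8 ± 0.13 in Col-0. It was higher in cyp71-3 (0.39, adjusted p = 4.77e-05) and not called in se-1 (0.03, adjusted p = 0.683), where PCNA2 rose. Only the longest annotated transcript of each member was searched for shared stretches, and 1 of the 2 MCM7 transcripts starts 739 bases inside the gene. MCM7 overlaps AT4G02050 by 437 bases on the opposite strand, and the MCM7 transcript searched shares no stretch of 25 bases with it. A transcript that starts 739 bases inside lies beyond that overlap. The search therefore does not speak for the MCM7 gene as a whole. AT4G02050 was higher in se-1 (0.52, adjusted p = 7.31e-05), and in cyp71-3 its value was 0.10 (adjusted p = 0.229). CDC6A shares 6.77% of its stretches with other genes, 49 with CDC6B (AT1G07270) on the same strand and 99 with AT2G29679 on the opposite strand, a gene listed at 0 in every library. The transcripts searched for MCM2 to MCM7 and CDT1A share none. On the map, 5 members lie on chromosome 2, where PCNA2 and CDC6A are 37417 bases apart.

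Set directly against se-1, cyp71-3 was lower for MCM2, MCM3, MCM6, MCM7, CDT1A, PCNA1 and PCNA2. PCNA2 differed most, with a log2 fold change of -0.53 ± 0.06 (adjusted p = 1.01e-05), then PCNA1 at -0.47 ± 0.06 (adjusted p = 6.40e-05) and MCM7 at -0.33 ± 0.05 (adjusted p = 0.000125). MCM3 fell by 0.21 (adjusted p = 0.00687), and MCM2, MCM6 and CDT1A by 0.14, 0.18 and 0.17 (adjusted p = 0.0281, 0.0354 and 0.0486). The 3 members not called were MCM4 at -0.14 (95% interval -0.31 to 0.02), MCM5 at -0.03 (-0.19 to 0.12) and CDC6A at -0.05 (-0.25 to 0.15). The median over the 10 members was -0.18, beside 0.00 over all genes tested. Leaving out cyp71-3 replicate 2, cyp71-3 replicate 3 or se-1 replicate 1 left 4 members called. Of all 19180 genes tested, those settings called 5032 to 5658 higher and 5724 to 5981 lower. With the 4 libraries of over 1% chloroplast FPKM left out together, se-1 had 1 library and more of the calls were lost. The calls of MCM2, MCM6 and CDT1A were the ones lost when 1 library was left out.

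**Figure D3:**
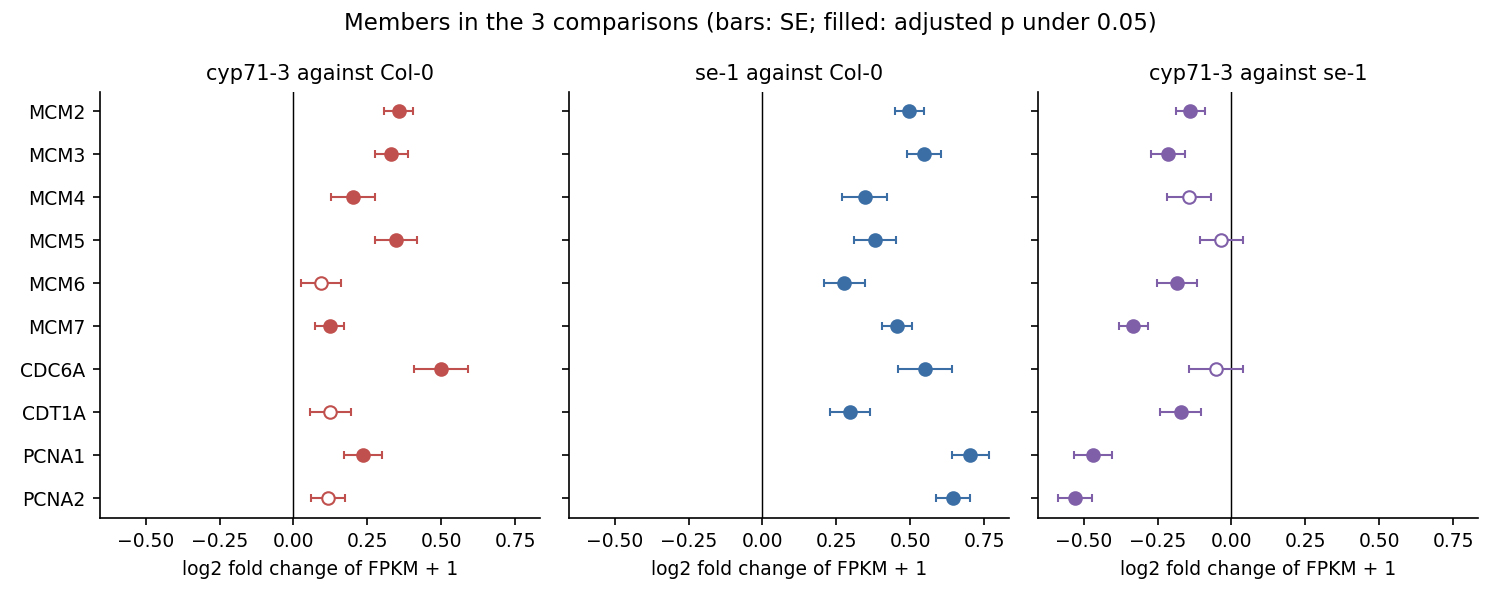
Log2 fold change of FPKM + 1 of each member with its SE in cyp71-3 against Col-0, se-1 against Col-0 and cyp71-3 against se-1 (filled points, limma adjusted p under 0.05; open points, not called). All members lie right of 0 in se-1, from 0.28 for MCM6 to 0.70 for PCNA1, and in the direct comparison the points of PCNA1 and PCNA2 lie farthest left.

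Within each genotype the members kept nearly the same order of FPKM, a measure per length of transcript. CDC6A was lowest in all 3, followed by CDT1A and MCM6, which overlapped in each genotype, and MCM7, PCNA1 and PCNA2 were the highest, in that order and without overlap. Between them, MCM4 was lower than MCM2 and MCM3 without overlap in cyp71-3 and se-1, and overlapped with both in Col-0. MCM2 and MCM3 overlapped in each genotype. MCM5 overlapped with MCM2 and MCM3 in se-1 and with no other member in cyp71-3 and Col-0. One se-1 library stood low for several members: se-1 replicate 3 had the lowest value of its genotype for MCM2 to MCM6 and was below the genotype mean for 7 of the 10. In cyp71-3, replicate 2 was above the genotype mean for 9 of the 10.

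The rest of the replication machinery is given from 6 lists of 59 other genes, of which 56 passed the filter; ORC1A, CDC6B and POL2B did not. In cyp71-3, 34 of the 56 were higher and 5 lower than in Col-0, with a median log2 fold change of 0.25. Over all genes tested, 30.6% were higher and 32.7% lower. The se-1 libraries likewise had 34 higher and 2 lower, with a median of 0.25, where 25.1% of all genes tested were higher and 25.1% lower. With the 4 libraries of over 1% chloroplast FPKM left out together, fewer of the 56 were called in se-1 against Col-0. Only 1 se-1 library then remained, and fewer genes were called among all genes tested as well. In the direct comparison of cyp71-3 against se-1, 13 of the 56 were higher and 15 lower, with a median of -0.03. Of all genes tested there, 30% were higher and 32.2% lower. The counts by list below are to be read beside these shares of all genes tested.

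Origin recognition and loading genes were higher for 5 of 7 tested in cyp71-3 and for 5 of 7 in se-1, with none lower in either. ORC6, a subunit of the origin recognition complex, averaged 6.51 ± 0.52 FPKM in cyp71-3, 6.12 ± 0.33 in se-1 and 3.73 ± 0.23 in Col-0, with log2 fold changes of 0.67 (adjusted p = 2.16e-05) and 0.59 (adjusted p = 9.03e-05). ORC4, another subunit, rose by 0.52 and 0.54 in cyp71-3 and se-1. Among helicase activation and other MCM genes, 4 of 10 were higher in cyp71-3 and 6 of 10 in se-1, with none lower. PSF2, a subunit of the GINS complex that activates the MCM ring, was the gene of this list that changed most: it averaged 9.71 ± 1.05 FPKM in cyp71-3, 12.5 ± 1.31 in se-1 and 4.19 ± 0.76 in Col-0. Its log2 fold changes were 1.05 (adjusted p = 1.16e-05) and 1.38 (adjusted p = 2.27e-06). MCM10, a replication initiation factor that is not part of the ring, rose by 0.73 in cyp71-3 and by 0.50 in se-1.

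The clamp loader puts PCNA onto DNA. The list holds RFC1 to RFC5 and CTF18, a gene of an alternative clamp loader. In cyp71-3, 5 of the 6 listed genes were higher and none lower, and in se-1 2 of 6 were higher and none lower. RFC2 averaged 11.95 ± 0.37 FPKM in cyp71-3, 9.35 ± 0.18 in se-1 and 8.68 ± 0.16 in Col-0. It rose in cyp71-3 by 0.42 (adjusted p = 3.78e-05) and was not called in se-1 (0.10, adjusted p = 0.158). RFC1 rose by 0.26 in cyp71-3, and CTF18 and RFC3 rose by 0.27 and 0.21 in se-1, the RFC3 call being lost under quantile normalization (adjusted p = 0.0506). The polymerase list had 5 of 10 higher in cyp71-3 and 7 of 10 in se-1, and none lower. POLD4, a small subunit of polymerase delta, averaged 60.3 ± 1.89 FPKM in cyp71-3, 37.0 ± 1.42 in se-1 and 36.2 ± 3.92 in Col-0. Its log2 fold change was 0.73 in cyp71-3 (adjusted p = 3.12e-06) and 0.04 in se-1 (adjusted p = 0.681). POLA1, the catalytic subunit of polymerase alpha, rose by 0.49 in cyp71-3. PRIM1 of primase and POLD2 of polymerase delta rose by 0.45 and 0.43 in se-1.

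The list of lagging strand, single-strand binding and nucleotide supply genes held falls as well as rises. In cyp71-3, 10 of 14 were higher and 3 lower, and in se-1 8 were higher and 1 lower. RNR2A and TSO2 both encode small subunits of ribonucleotide reductase and went opposite ways. RNR2A averaged 24.0 ± 1.07 FPKM in cyp71-3, 36.9 ± 1.13 in se-1 and 46.1 ± 0.73 in Col-0, a fall of 0.92 in cyp71-3 (log2 fold change -0.92, adjusted p = 1.43e-08) and of 0.32 in se-1 (log2 fold change -0.32, adjusted p = 0.000122). TSO2 averaged 108.1 ± 1.56 FPKM in cyp71-3, 90.0 ± 4.98 in se-1 and 68.6 ± 0.74 in Col-0, with log2 fold changes of 0.65 (adjusted p = 1.21e-07) and 0.39 (adjusted p = 1.48e-05). Of the replication protein A genes, which coat single-stranded DNA, RPA1D rose by 0.75 in cyp71-3. RPA3A rose by 0.76 and RPA2A by 0.48 in se-1, and RPA3B fell in cyp71-3 (log2 fold change -0.60).

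The list of E2F and RBR regulators holds E2F and DP factors, atypical E2F factors and RBR1. It had 5 of 9 genes higher and 2 lower in cyp71-3, and 6 higher and 1 lower in se-1. DPA, a dimerization partner of E2F factors, averaged 10.5 ± 0.43 FPKM in cyp71-3, 17.1 ± 0.52 in se-1 and 8.27 ± 0.54 in Col-0. Its log2 fold change was 0.32 in cyp71-3 (adjusted p = 0.000815) and 0.97 in se-1 (adjusted p = 2.34e-07). E2FA, an activator, fell in cyp71-3 (-0.21, adjusted p = 0.0394) and rose in se-1 (0.26, adjusted p = 0.0191), and its cyp71-3 call was lost after rescaling to nuclear genes (adjusted p = 0.229). RBR1, the repressor of E2F activity, fell in cyp71-3 (-0.31, adjusted p = 0.00039) and in se-1 (-0.20, adjusted p = 0.0108), and the se-1 call was lost after that rescaling (adjusted p = 0.266). The atypical E2F genes DEL3 and DEL1, which repress without a partner, rose by 0.95 and 0.57 in cyp71-3, and DEL2 by 0.65 in se-1.

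**Figure D4:**
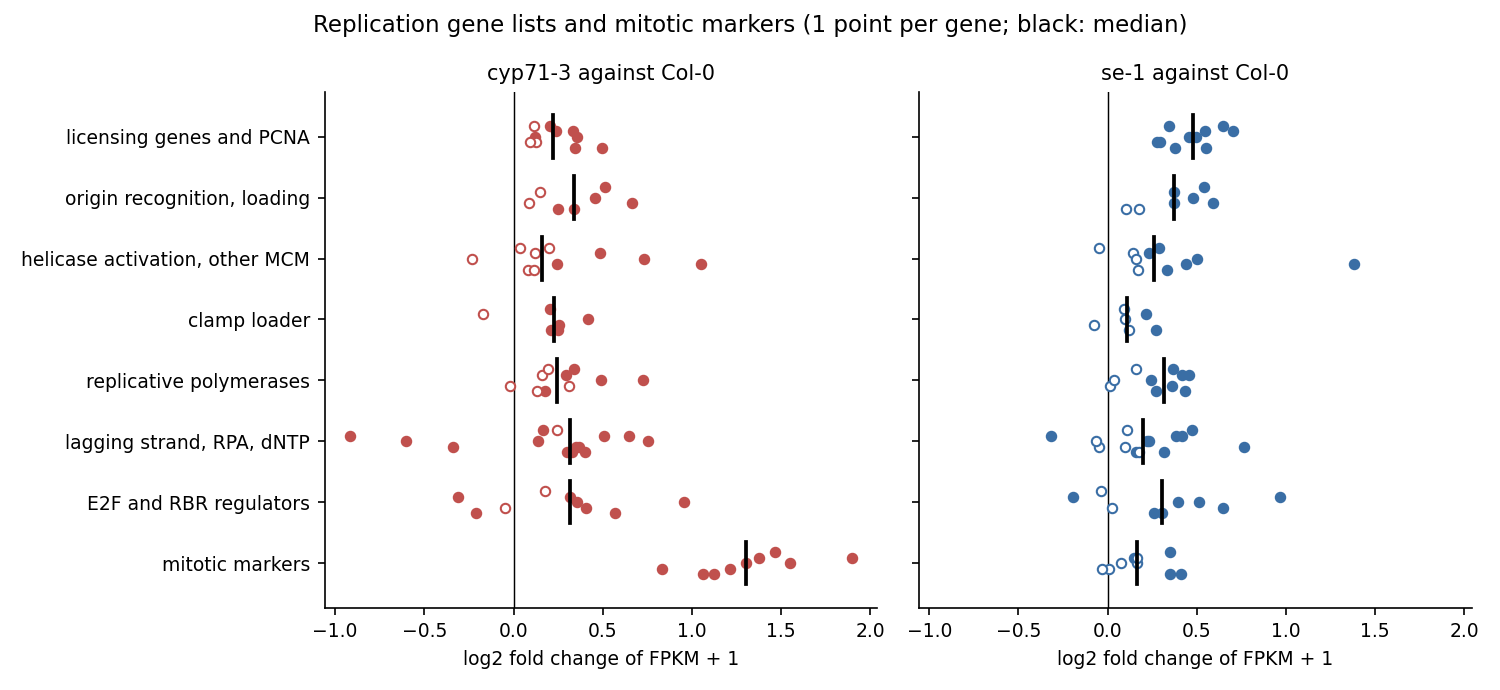
Log2 fold change of FPKM + 1 of each tested gene in cyp71-3 against Col-0 and se-1 against Col-0, by list (1 point per gene; filled, limma adjusted p under 0.05; open, not called; black bar, median). The replication lists have medians between 0.11 and 0.48, while the mitotic markers have a median of 1.303 in cyp71-3 and 0.16 in se-1.

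Markers of dividing cells moved with genotype in another proportion than the members did. The 9 mitotic markers summed to 181 to 192 FPKM in cyp71-3, 79.9 to 82.5 in se-1 and 67.8 to 73.9 in Col-0. The 10 members summed to 146 to 155 FPKM in cyp71-3, 184 to 189 in se-1 and 127 to 128 in Col-0. The ratio of the mitotic to the member sum was 1.23 to 1.29 in cyp71-3, 0.434 to 0.438 in se-1 and 0.536 to 0.576 in Col-0, so the 3 genotypes did not overlap, with cyp71-3 highest and se-1 lowest. All 9 mitotic markers were higher in cyp71-3 than in Col-0, with a median log2 fold change of 1.303, beside 30.6% of all genes tested. In se-1, 4 of 9 were higher, with a median of 0.16, beside 25.1% of all genes tested. The part of dividing cells in the members' levels was not tested.

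CYCB1;1, a mitotic cyclin, averaged 14.5 ± 0.99 FPKM in cyp71-3, 3.65 ± 0.08 in se-1 and 3.16 ± 0.28 in Col-0, with log2 fold changes of 1.90 (adjusted p = 3.76e-09) and 0.16 (adjusted p = 0.101). The cytokinesis kinesin gene HIK rose by 1.55 in cyp71-3, and the mitotic kinase CDKB1;1 and the cyclin CYCB1;2 rose by 0.41 and 0.35 in se-1. The cytokinetic syntaxin KN averaged 55.9 ± 1.79 FPKM in cyp71-3, 23.3 ± 1.11 in se-1 and 20.9 ± 0.78 in Col-0, and CDKB2;1 averaged 23.4 ± 1.33, 12.9 ± 2.18 and 12.7 ± 0.61 FPKM in the same order. Against se-1, all 9 mitotic markers were higher in cyp71-3 (median 1.14), while 7 of the 10 members were lower.

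**Figure D5:**
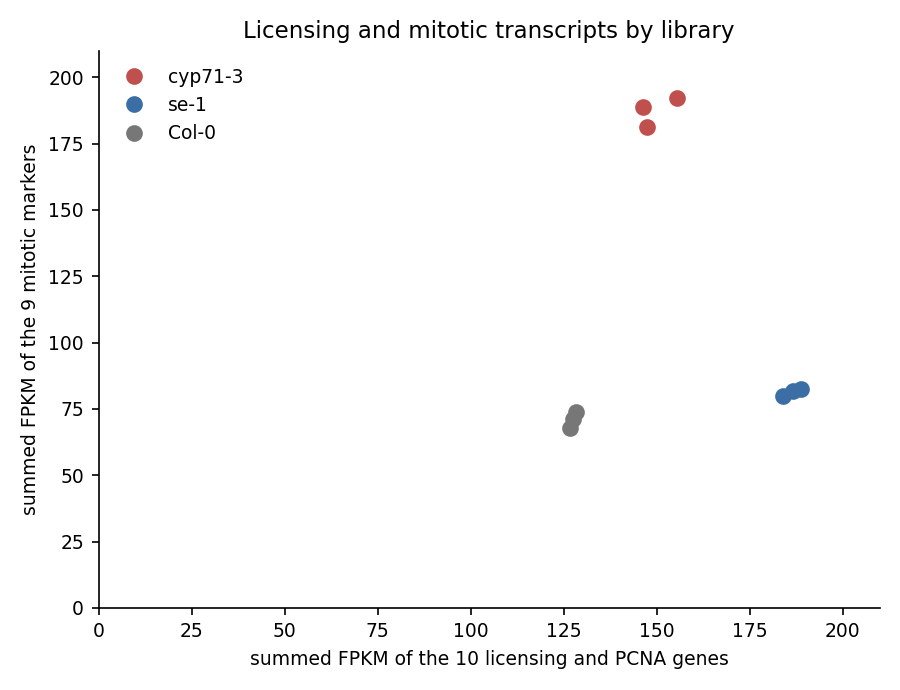
Summed FPKM of the 9 mitotic markers (y axis) against summed FPKM of the 10 licensing and PCNA genes (x axis), 1 point per library. The cyp71-3 libraries lie high, at 181 to 192 on the y axis, and the se-1 libraries lie to the right, at 184 to 189 on the x axis.

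Markers of other tissues also differed between genotypes. Shoot meristem markers summed to 16.6 to 17.2 FPKM in cyp71-3, 10.6 to 12.7 in se-1 and 11.6 to 11.9 in Col-0, and root meristem markers to 25.5 to 27.9, 31.96 to 32.7 and 36.8 to 38.1 FPKM. Both tested shoot meristem markers, STM (0.73) and KNAT1 (0.32), rose in cyp71-3, and neither was called in se-1. Of the root meristem list, only SCR and SHR passed the filter, and both were listed as genes of the root in general. The genes listed for the root meristem itself, PLT1 and PLT2, did not pass. SCR fell in cyp71-3 (-0.52) and se-1 (-0.43), and SHR fell in cyp71-3 (-0.27) and rose in se-1 (0.18). Leaf mesophyll markers summed to 32635 to 33539 FPKM in cyp71-3, 33269 to 37062 in se-1 and 37324 to 38557 in Col-0. RCA, the Rubisco activase gene, fell in cyp71-3 (-0.63) and in se-1 (-0.49), and the se-1 call was lost under quantile normalization (0.00). LHCB2.1 fell in both (-0.56 and -0.46), and LHCB1.3 was called in neither. Differentiated root markers summed to 28.01 to 28.9 FPKM in cyp71-3, 34.8 to 40.7 in se-1 and 28.8 to 31.9 in Col-0, and the list split. In cyp71-3, the root hair genes EXPA7 (1.56) and COBL9 (0.37) rose, and the endodermal genes CASP1 (-0.76) and CASP2 (-0.61) fell. In se-1, EXPA7 (0.85), COBL9 (0.37) and CASP1 (0.25) rose, and CASP2 was not called (0.03). Stomatal lineage markers summed to 40.3 to 42.8, 41.4 to 43.4 and 49.1 to 52.4 FPKM in cyp71-3, se-1 and Col-0, and this list split too. FAMA fell in cyp71-3 (-0.86) and se-1 (-0.60), and TMM fell in both (-0.24 and -0.27). In cyp71-3, EPF2 (0.38) and SPCH (0.28) rose and MUTE fell (-0.24), while in se-1 MUTE rose (0.30). Rescaling to nuclear genes ended both TMM calls (adjusted p = 0.109 and 0.0754) and the MUTE call in cyp71-3 (adjusted p = 0.194), and quantile normalization ended the SPCH call (adjusted p = 0.0565). Their part in the members' levels was not tested.

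Among tested genes other than the members, only those with a gene symbol in the reference were searched for likeness to the members' mean over the 9 libraries. The 8 whose log2(FPKM + 1) ran closest had Pearson r of 0.985 to 0.994. These are given as a description, since the libraries of a genotype share their level. The members' own r with that mean ran from 0.879 for MCM5 to 0.981 for MCM3. The closest was IMS2, a gene annotated as an isopropylmalate synthase, at 59.5 ± 1.82 FPKM in cyp71-3, 69.9 ± 1.93 in se-1 and 49.2 ± 1.78 in Col-0 (r = 0.994). Next was ADC2, an arginine decarboxylase of polyamine synthesis, at 264 ± 7.20, 395 ± 20.8 and 171 ± 1.45 FPKM in cyp71-3, se-1 and Col-0. ETT, an auxin response factor, averaged 16.3 ± 0.24 FPKM in cyp71-3, 19.1 ± 0.75 in se-1 and 12.2 ± 0.11 in Col-0. The microRNA gene MIR157c averaged 15.0 ± 8.28 FPKM in cyp71-3 and 127 ± 27.1 in se-1 and was listed at 0 in every Col-0 library. EXL5, AGP17, BME3 and VOZ1 completed the 8. Each had its highest mean in se-1 and its lowest in Col-0, an order that follows from how the 8 were picked.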

How the data were processed

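The authors deposited 1 table of FPKM values per library, to 2 decimals. Tools named in the submitters' processing notes are Cuffnorm, Cuffdiff, STAR 2.7.2b and Trim Galore 0.6.7, with TAIR10 as genome build. Neither annotation nor strand setting is stated there. Absolute depth cannot be read from FPKM, and relative depth came from the 2nd percentile of nonzero values times length in genes of 400 to 700 bases.

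FPKM are not counts, so limma 3.58.1 (R 4.3.3) was run on log2(FPKM + 1), with an intensity trend, over all 9 libraries and the 19180 genes with a mean FPKM of at least 1. P-values were two-sided and adjusted by Benjamini-Hochberg over all genes tested, with calls under 0.05. The fit was run on simulated data in which few genes changed, and in cyp71-3 alone. That run does not cover data in which 50.2% to 63.3% of all genes tested are called. The members and gene lists were chosen with earlier results of these data known. Besides the members, the genes named were the 2 targeted genes and the 2 largest called rises and falls of each list in each mutant. The 2 most abundant markers of each list were named too, as were the 8 genes with a symbol most like the members' mean. ENOC, AT4G02050 and other overlapping neighbours were added for their position. Positions and sequences are RefSeq TAIR10.1, while the files hold no coordinates; motif searches and plots used Python 3.11.15.

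The alternatives were other pseudocounts, filters, scalings, variance models, a fold threshold, a replicate block, the compared groups alone and each library left out. Leaving out the 4 libraries with over 1% chloroplast FPKM together was chosen after seeing the data.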

Additional observations from a re-analysis of the deposited data

How the results depend on the processing

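No alternative reversed a member in either mutant against Col-0, and in se-1 calls were lost under 2 settings, the fold threshold and the 4 libraries left out (CDT1A). A fold change threshold of 1.2 left 1, 6 and 2 members called in cyp71-3 against Col-0, se-1 against Col-0 and cyp71-3 against se-1. Of the 56 other listed replication genes tested, 13, 9 and 6 were called in that order. Over all 19180 genes tested, that threshold called 2587 higher and 3026 lower in cyp71-3, and 1601 and 1555 in se-1. Between the mutants it called 2393 higher and 2946 lower. Leaving out the 4 libraries of over 1% chloroplast FPKM together left 9 members and 16 listed genes called in se-1 against Col-0, and 3 members and 14 listed genes in cyp71-3 against se-1; se-1 then had 1 library, assumed to vary like the others. Without those 4 libraries, fewer of all genes tested were called as well. In both of these comparisons a smaller share of the 56 listed genes than of all genes tested was called. The members were called more often than all genes in se-1 against Col-0, and less often in cyp71-3 against se-1. With 1 library left out, 5 to 7, 10 to 10 and 4 to 6 members were called in the 3 comparisons, in the same order. These settings called 32 to 40, 27 to 36 and 21 to 27 of the 56 listed genes. Among all 19180 genes tested they called 5227 to 6015 higher and 5745 to 6418 lower in cyp71-3. In se-1 they called 4238 to 4739 higher and 4172 to 4890 lower, and between the mutants 5032 to 5686 and 5605 to 6125. In cyp71-3 against se-1, MCM5 then ranged from -0.1183 to 0.0180, above 0 without cyp71-3 replicate 1 or se-1 replicate 1. CDC6A ranged from -0.1006 to 0.0157, above 0 without cyp71-3 replicate 1, and was 0.0311 without the 4 libraries; neither was called. The difference in PCNA1 share, se-1 minus Col-0, ranged from -0.378 to 2.52 percentage points with 1 library left out. The difference in MCM spread, cyp71-3 minus Col-0, turned to 0.504 percentage points under quantile normalization and to 0.0228 as an SD of log2 values. The cause was not tested. The MCM4 call in cyp71-3 was also lost with no filter (adjusted p = 0.0504), and that of MCM7 under median centring, without a trend, with robust moderation, with the 2 groups alone and without the 4 libraries (adjusted p = 0.0787). Same-numbered deviations correlated at -0.137 to 0.043 and others at -0.082 to 0.152, and 0 libraries correlated best with their own number in both other genotypes. Between the mutants, though, each same-numbered pair (0.019, 0.04 and 0.043) was the best of its 3. With so few libraries these values do not show that the libraries were unpaired. The replicate block called 6, 10 and 6 members, losing MCM7 in cyp71-3 (adjusted p = 0.0716) and MCM2 between the mutants (adjusted p = 0.0526). Over all 19180 genes tested it called 5717 higher and 6147 lower in cyp71-3, and 4639 and 4599 in se-1. Between the mutants it called 5574 higher and 5998 lower. A mean FPKM of at least 5 gave no value for CDC6A.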
